A study of Mus musculus with 4 samples.

Results

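Maff, Irs2, Pde4c, Il12rb2, Atp8a2 and Gm26802 are 6 genes, of 32285 genes listed in the count files, selected on their levels: in several liver cell types the JQF library stood above the HFD libraries. The members were thus chosen by the JQF and HFD levels per cell type, so the JQF levels are given here as a description with no test, and nothing is supported with them. Single-cell RNA sequencing was performed on perfused livers of male C57BL/6J mice, which were 5 weeks old on arrival. The NCD group received a normal chow diet, the HFD group a 60% fat high-fat diet for 14 weeks, and distilled water was then given by mouth for 8 weeks. The JQF group had the same high-fat diet and received Jiangtang Qingre Formula, a mixture of several medicinal herbs, by mouth in those 8 weeks. There was 1 library from NCD, 2 from HFD and 1 from JQF, and the labels describe the HFD pair as separate samples. NCD and JQF therefore had no replicate, and any difference between NCD or JQF and HFD cannot be told apart from a difference between single mice or single preparations.

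Small Maf proteins such as Maff lack an activation domain of their own and pair with other basic leucine zipper factors, among them NRF2, at antioxidant response elements. Irs2 is an adaptor that passes the signal of the insulin receptor to phosphatidylinositol 3-kinase, and in liver it carries much of the metabolic action of insulin. Pde4c belongs to the phosphodiesterase 4 enzymes, which break down cyclic AMP. Il12rb2 is the signalling chain of the interleukin-12 receptor, which acts through STAT4 and T-bet in natural killer (NK) cells and type 1 T cells. Atp8a2 is a P4-type ATPase that moves aminophospholipids to the inner leaflet of membranes and is best known from neurons and photoreceptors. Gm26802 is annotated as a long intergenic non-coding RNA, and no function is given for it here. The genes are not members of a single pathway.

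The genes lie apart in the genome. On GRCm38, Maff spans chr15:79346621-79359076 on the plus strand, Irs2 chr8:10984681-11008458 on the minus strand, Pde4c chr8:70723720-70751186 on the plus strand and Il12rb2 chr6:67291318-67376188 on the minus strand. Atp8a2 covers 558640 bases at chr14:59638540-60197179 on the minus strand, and Gm26802 covers 2511 bases at chr7:19298260-19300770 on the minus strand. The nearest gene to Gm26802 on its own strand is Fosb, an immediate early gene of the AP-1 family, whose 3′ end lies 1925 bases before the Gm26802 start. Gm3336 ends 1085 bases before Pde4c, also on the same strand. Serbp1 overlaps Il12rb2 on the opposite strand, and 9530052E02Rik does so for Irs2.

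The bases before each start site are shown as a description, with short promoter motifs marked. The genes were put together by the choice, and their levels did not all move together over types and libraries. RefSeq promoter windows (GRCm38.p6, 250 bases before to 50 after a start site) matched 5 of the 6 genes, Maff with 3 start sites, and Atp8a2 was not matched. Each sequence is the 250 bases before the start site, 5′ to 3′ on the strand of the gene, with matches to the motifs searched in capitals. Searched on both strands were the cyclic AMP response element TGACGTCA and its shorter core CGTCA, which TGACGTCA holds on each strand. The AP-1 word was TGANTCA, and the core of antioxidant or Maf response elements was TGACNNNGC. GTAAACA stands for forkhead factors. The word TATAAA is the TATA box. ACGTG is the core that HIF and E-box factors share.
Maff, chr15:79347270-79347519, plus strand: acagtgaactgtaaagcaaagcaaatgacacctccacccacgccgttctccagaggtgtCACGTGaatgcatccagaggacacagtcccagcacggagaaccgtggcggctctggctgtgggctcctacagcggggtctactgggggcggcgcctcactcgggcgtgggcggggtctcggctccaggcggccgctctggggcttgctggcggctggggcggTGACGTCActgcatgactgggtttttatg
Gm26802, chr7:19300794-19301043, minus strand: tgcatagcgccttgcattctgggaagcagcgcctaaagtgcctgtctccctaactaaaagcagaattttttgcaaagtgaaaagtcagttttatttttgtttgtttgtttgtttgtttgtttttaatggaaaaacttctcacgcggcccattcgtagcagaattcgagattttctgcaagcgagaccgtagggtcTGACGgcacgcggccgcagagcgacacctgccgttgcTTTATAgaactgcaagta
Il12rb2, chr6:67376189-67376438, minus strand: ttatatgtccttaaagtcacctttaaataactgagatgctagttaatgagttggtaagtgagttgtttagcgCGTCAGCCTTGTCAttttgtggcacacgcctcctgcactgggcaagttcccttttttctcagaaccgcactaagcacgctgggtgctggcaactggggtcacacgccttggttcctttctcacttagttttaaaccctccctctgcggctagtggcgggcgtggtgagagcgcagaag
Irs2, chr8:11008930-11009179, minus strand: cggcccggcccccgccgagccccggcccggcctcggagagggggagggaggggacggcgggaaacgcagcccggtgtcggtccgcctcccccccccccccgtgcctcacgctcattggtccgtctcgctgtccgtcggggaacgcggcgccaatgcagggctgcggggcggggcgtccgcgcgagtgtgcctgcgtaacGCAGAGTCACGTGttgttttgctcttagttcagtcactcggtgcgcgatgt
Pde4c, chr8:70723814-70724063, plus strand: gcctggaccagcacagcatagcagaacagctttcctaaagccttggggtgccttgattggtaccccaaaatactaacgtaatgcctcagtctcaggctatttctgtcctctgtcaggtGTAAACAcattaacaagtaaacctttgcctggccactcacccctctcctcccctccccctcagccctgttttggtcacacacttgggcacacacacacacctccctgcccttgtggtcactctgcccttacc
The second Maff start site carried TGACGTCA beginning 29 bases before the start, a word held by 1.79% of the 32851 windows of the same length. The shorter word CGTCA was also found before Gm26802, 55 bases upstream and on the opposite strand, before Il12rb2, 178 bases upstream, and before the third Maff start site. It occurred in 20.8% of all windows. Irs2 held TGACNNNGC and ACGTG, which overlap and begin 51 and 44 bases upstream, and Pde4c held GTAAACA 132 bases upstream. These words were in 12.4%, 19.6% and 3.65% of all windows. TGACNNNGC was also present before Il12rb2 and before the first Maff start site. TGANTCA was in none of the 7 windows of these genes, and no motif was shared by all 5 genes. A match describes letters only.

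After filtering, 31290 cells remained, namely 5975 (NCD), 6516 and 10259 (HFD replicates 1 and 2) and 8540 (JQF), with 67615639 to 108062769 UMIs per library. The median depth per cell was highest in NCD, at 13081 UMIs against 7608 to 8884 in the other libraries. Cells were placed by marker genes, which named 87.4% to 93.8% of the cells of a library, and 9 types with at least 30 cells in every library were compared. The labels call the material immune cells and hematopoietic stem cells, whereas hepatocytes and endothelial cells were present, and of 750 cells with at least 3 stem cell markers 570 lay in the endothelial gate. NCD was the library that stood apart, since 3775 of its 5975 cells were endothelial. It held 37 NK cells and 48 monocytes, so NCD values in those types rest on few cells. Of the cells of a library, 0.565% to 0.706% shared their barcode with a cell of another library. The NCD cells of the hepatocyte gate had a median of 2138 UMIs against 3742 to 7757 in the other libraries, and summed T cell markers stood at 343, 16.1, 60.5 and 119.5 CPM there, in the order NCD, HFD replicates 1 and 2 and JQF. The hepatocyte gate is part of the counts over 9 types. Counts without it are given for pairs with JQF or NCD above both HFD libraries and for the HFD against NCD calls. The count of pairs with JQF at least 2 times both HFD libraries and the counts of gene lists are given with it only.

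Levels are CPM, the UMIs of a gene per 1000000 UMIs of the type in that library, and 4 values in a row follow the order NCD, HFD replicate 1, HFD replicate 2 and JQF. A level summed over cells does not tell fewer expressing cells from less RNA per cell. CPM of different genes are not divided by length, which 3′ counting does not call for. Over the 54 pairs of a gene and a type, the JQF level was above both HFD libraries in 50. Among all genes tested in these types the share was 33.3% (58.3% in the hepatocyte gate), which is printed for scale only, since this contrast chose the genes. JQF was at least 2 times both HFD libraries in 38 pairs, against 5.12% of all genes tested (23.8% in the hepatocyte gate). Without the hepatocyte gate JQF was above both in 44 of 48 pairs. The single pair in which JQF lay below both HFD libraries was Maff in endothelial cells.

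**Figure D1:**
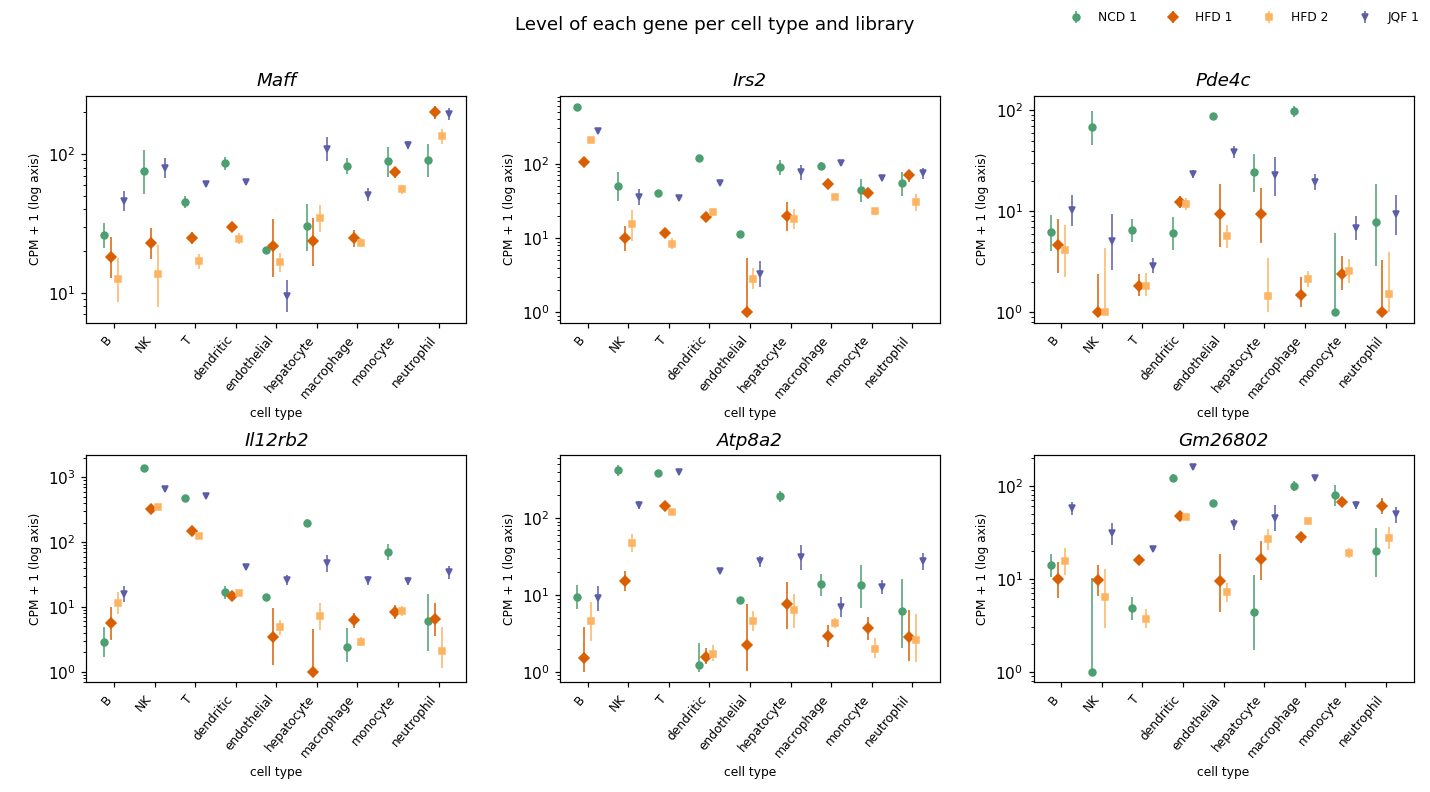
Level of the 6 genes in 9 cell types. The vertical log axis gives CPM plus 1, points are single libraries (green circles NCD, dark orange diamonds HFD replicate 1, light orange squares HFD replicate 2, blue triangles JQF), and bars are exact Poisson 95% intervals of the UMI count, which cover counting error only. The blue points sit above both orange points in 50 of 54 gene and type pairs, and Maff in endothelial cells is the pair where blue is lowest.

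Il12rb2 was foremost an NK and T cell gene. In NK cells it stood at 1417 CPM in NCD, 321 and 343 CPM in HFD replicates 1 and 2 and 667 CPM in JQF, and in T cells at 479.7 CPM in NCD, 150.3 and 123 CPM in HFD replicates 1 and 2 and 507 CPM in JQF. T cells held 57.3% to 78.4% of all its UMIs in a library. Among the 9 types the next level in JQF was the 46.7 CPM of the hepatocyte gate, followed by dendritic cells at 15.9 CPM in NCD, 13.6 and 15.4 CPM in HFD replicates 1 and 2 and 40.7 CPM in JQF. In the other 5 types JQF levels ran from 15.1 to 33.4 CPM, with no clear order between endothelial cells, macrophages and monocytes, whose JQF values were 25.2, 24.9 and 24.3 CPM with overlapping intervals. The JQF level was 3.71 times the HFD mean in T cells and 2.01 times in NK cells, and the HFD libraries lay close together, with means of 137 ± 19.1 and 332 ± 15.4 CPM (SD, n = 2). At least 1 UMI was found in 43.5% (NCD), 30.01% and 25.1% (HFD replicates 1 and 2) and 64.5% (JQF) of T cells. After expected thinning of every cell to 2000 UMIs the shares were 32.5% (NCD), 16.8% and 15.4% (HFD replicates 1 and 2) and 42.6% (JQF), with NCD and JQF again above both HFD libraries. In endothelial cells, a type not known for this receptor, the shares as sequenced were 2.54% (NCD), 0.917% and 1.01% (HFD replicates 1 and 2) and 3.97% (JQF), at median depths in JQF of 8068 UMIs against 7946 in T cells. Endothelial cells of NCD were deeper, at a median of 15986 UMIs against 6283 and 6215 in HFD replicates 1 and 2. The genes most like Il12rb2 over the 36 values of log2(CPM + 1) by type and library were Tbx21 (T-bet), Sytl2 and Eya2, with Pearson r of 0.92, 0.92 and 0.91. These points share libraries and cells, and r describes likeness alone.

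Atp8a2 followed a similar distribution, with T cells holding 66.8% to 87.6% of its UMIs. Its T cell level was 378 CPM in NCD, 142 and 120.0 CPM in HFD replicates 1 and 2 and 391 CPM in JQF, and 42.2% (NCD), 27.7% and 21.5% (HFD replicates 1 and 2) and 60.5% (JQF) of T cells held a UMI. In NK cells it was 415 CPM in NCD, 14.4 and 46.6 CPM in HFD replicates 1 and 2 and 148 CPM in JQF, so that the HFD libraries differed by 3.25 times between themselves and JQF lay above both. The JQF level was 2.98 times the HFD mean in T cells. B cells, dendritic cells, endothelial cells, macrophages, monocytes and neutrophils held at most 26.6 CPM in any library. The largest ratio of JQF to the HFD mean, 30.6, was found in dendritic cells, where the levels were 0.245, 0.565, 0.721 and 19.7 CPM and 397 UMIs stood behind the JQF value. That value was below the 99.6 CPM of free RNA in JQF, which does not decide whether these cells express the gene. Among its nearest genes by likeness were Cd28 and Skap1, which are T cell signalling genes, with r of 0.91 and 0.90, and r with Il12rb2 was 0.82.

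Irs2 had its highest level in B cells, at 575 CPM in NCD, 105 and 212 CPM in HFD replicates 1 and 2 and 276 CPM in JQF. The HFD libraries differed by 2.02 times from each other there, and JQF was 1.304 times the higher of them. Irs2 UMIs were found in 81.7% (NCD), 22.4% and 41.5% (HFD replicates 1 and 2) and 59.4% (JQF) of B cells, and after thinning in 56.4% (NCD), 12.8% and 26.98% (HFD replicates 1 and 2) and 34.5% (JQF). The endothelial shares, as sequenced, were 4.34% (NCD), 0% and 0.924% (HFD replicates 1 and 2) and 1.49% (JQF). Median depths of these cells were 15986, 6283, 6215 and 8068 UMIs, so the NCD share comes from the deepest cells. In dendritic cells the levels were 118, 17.97, 21.5 and 54.7 CPM, in macrophages 92.1, 51.99, 34.7 and 101 CPM and in T cells 39.3, 10.6, 7.404 and 33.3 CPM. In these 3 types JQF was 2.77, 2.34 and 3.71 times the HFD mean. In neutrophils the JQF level of 73.8 CPM stood next to 68.7 CPM in HFD replicate 1 and 29.7 CPM in replicate 2, so JQF and replicate 1 were close to each other. Endothelial cells had the lowest levels, 10.2, 0, 1.86 and 2.27 CPM, and HFD replicate 1 had no UMI in 109 cells, which allows a share of cells with a UMI of up to 2.75% and sets no limit on cells that express the gene. Pik3ap1, Tec and Map3k5 were most like Irs2, with r of 0.81, 0.77 and 0.77.

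Maff was broad. Among the 9 types its highest levels were in neutrophils, at 89.8 CPM in NCD, 199 and 134 CPM in HFD replicates 1 and 2 and 193 CPM in JQF, and in monocytes, at 87.7 CPM in NCD, 72.97 and 54.8 CPM in HFD replicates 1 and 2 and 116 CPM in JQF. In neutrophils the JQF value lay between the HFD values, and in monocytes above both. Dendritic cells had 85.05, 28.99, 23.6 and 62.2 CPM, macrophages 81.3, 23.7, 22.03 and 50.1 CPM, NK cells 74.6, 21.9, 12.5 and 78.5 CPM and T cells 44.5, 23.9, 15.8 and 59.9 CPM. In each of these 4 types the HFD pair was lowest, and NCD and JQF were both above it. The HFD values of these types lay below the free RNA of their libraries, as did the JQF values except in NK cells, whereas the NCD values lay above it. Endothelial cells went the other way for JQF, with 19.3, 20.6, 15.6 and 8.53 CPM. Of these the first HFD value rests on 17 UMIs and the JQF value on 45. All 4 values lay below the free RNA of their library, which does not decide whether the cells express the gene. Gadd45b and Sqstm1, which are induced under cell stress, were among the genes most like Maff, with r of 0.83 and 0.83.

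Pde4c stood at 11.4 CPM or less in the HFD libraries in the 9 types. Endothelial cells held 87.2 CPM in NCD, 8.47 and 4.65 CPM in HFD replicates 1 and 2 and 38.1 CPM in JQF, and macrophages 97.2 CPM in NCD, 0.477 and 1.14 CPM in HFD replicates 1 and 2 and 18.6 CPM in JQF. NCD was highest in both types and JQF intermediate. The HFD macrophage values rest on 4 and 35 UMIs, and 39.6% of the 111 JQF UMIs came from 3 cells. In dendritic cells the order was another one, with 5.15 CPM in NCD, 11.4 and 10.8 CPM in HFD replicates 1 and 2 and 22.4 CPM in JQF. Of NK cells, 0 of 323 and 0 of 179 HFD cells held a Pde4c UMI, which allows shares of cells with a UMI of up to 0.929% and 1.68%, whereas the 27 UMIs of NCD all came from no more than 3 cells. T cells had 5.48, 0.821, 0.844 and 1.91 CPM. NCD was lowest in dendritic cells and monocytes, and highest in NK cells, T cells, endothelial cells, macrophages and the hepatocyte gate.

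Among the 9 types, Gm26802 was highest in dendritic cells in NCD, HFD replicate 2 and JQF, and in monocytes in HFD replicate 1. Endothelial cells, 3775 of the 5975 NCD cells, gave 76.1% of its UMIs in NCD. Dendritic cells held 121 CPM in NCD, 45.9 and 44.6 CPM in HFD replicates 1 and 2 and 159 CPM in JQF, with JQF highest and the HFD pair close together and lowest. A UMI was found in 47.6% (NCD), 19.6% and 24.05% (HFD replicates 1 and 2) and 49.6% (JQF) of dendritic cells, and after thinning in 13.5% (NCD), 5.800% and 6.095% (HFD replicates 1 and 2) and 17.4% (JQF). In T cells, where it was scarce, the shares as sequenced were 1.85% (NCD), 4.32% and 1.51% (HFD replicates 1 and 2) and 7.45% (JQF). Macrophages had 98.3, 26.8, 40.3 and 119.7 CPM and endothelial cells 63.4, 8.47, 6.16 and 37.5 CPM. In monocytes and neutrophils the HFD replicates disagreed, at 66.4 and 17.8 CPM and at 59.5 and 26.5 CPM, and JQF lay between them in both types. T cells had 3.82, 14.9, 2.73 and 19.8 CPM, again with HFD replicates far apart. The genes most like it were Fam71a, Egr1 and Gm17749, with r of 0.77, 0.77 and 0.76.

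The neighbours of these genes bear on what the 3′ counts stand for. Gm3336 was the gene most like Pde4c of 11265 compared, with r of 0.82, and is also its neighbour. Gm3336 stood at 54.05, 1.91, 2.84 and 18.2 CPM in macrophages, at 50.97, 0, 1.16 and 24.4 CPM in endothelial cells and at 11.3, 19.9, 17.3 and 27.7 CPM in dendritic cells. It was lower in HFD than in NCD by a log2 change of -5.75 ± 0.44 (SE; adjusted p = 0.00348 by edgeR) in endothelial cells and of -4.33 ± 0.28 in macrophages (edgeR adjusted p = 0.0215). Reads that could come from either neighbour cannot be told apart in the deposited counts. Fosb, by contrast, showed r of 0.42 with Gm26802 over the same 36 values, although it too was higher in JQF than in both HFD libraries in 7 of 9 types and in NCD in 9. In dendritic cells Fosb stood at 2026, 574, 949 and 1441 CPM, and in neutrophils at 3301, 2409.6, 1722 and 2368 CPM. Rtn2, on the other side of Gm26802 and on the opposite strand, had r of 0.69 and stood at 12.99, 1.87, 1.86 and 17.5 CPM in dendritic cells. Its log2 changes there were -2.90 ± 0.25 (SE; adjusted p = 0.00953 by edgeR) for HFD against NCD and 3.29 ± 0.21 (SE; adjusted p = 0.0437 by edgeR) for JQF against HFD. Tmem184b, 1607 bases after Maff, had r of 0.00 with it.

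**Figure D2:**
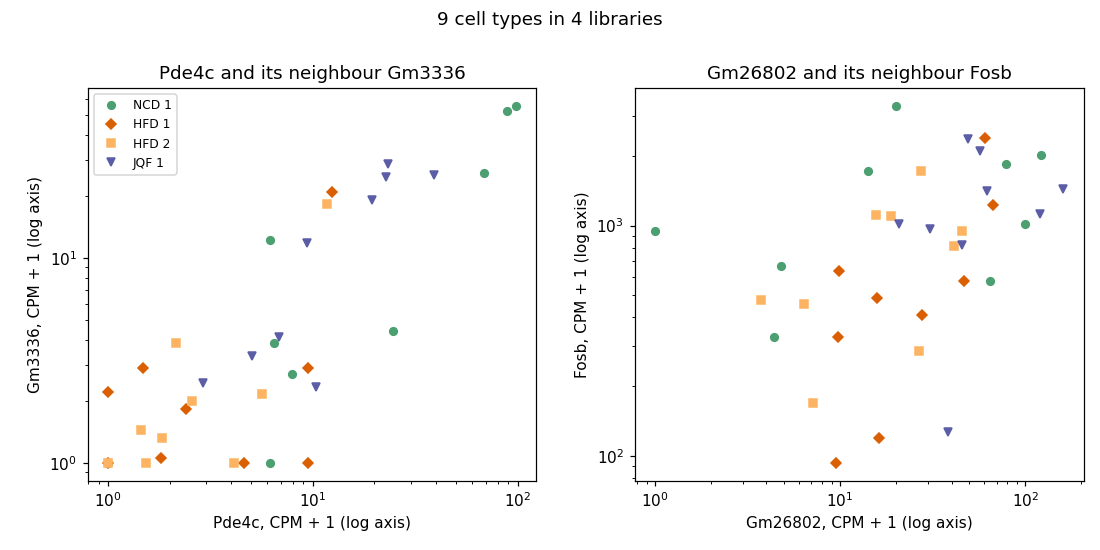
Neighbouring genes in 9 cell types and 4 libraries. Each point is 1 type in 1 library, with CPM plus 1 of Pde4c or Gm26802 on the horizontal log axis and of Gm3336 or Fosb on the vertical log axis, coloured by library. Pde4c and Gm3336 rise together (r = 0.82 over 36 points), with the NCD endothelial and macrophage values at the top right, whereas Gm26802 and Fosb are more loosely related (r = 0.42).

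Next, HFD was compared with NCD, a contrast that the choice of the genes did not use but that shares both HFD libraries with it. Genes taken for low HFD levels relative to JQF are also more likely to be low relative to NCD, so the counts are not independent of the choice. Raw UMIs were summed per library and type and tested with edgeR over all genes of the type. Of the 54 pairs, 28 were called in HFD at an adjusted p under 0.05, 26 of them lower and 2 higher (22 lower and 1 higher of 48 pairs without the hepatocyte gate), where 12.3% of all gene tests in these types were called, that is 6.94% lower and 5.34% higher. NCD lay above both HFD libraries in 39 of the 54 pairs (35 of 48 without the hepatocyte gate), and among all genes tested in 37.5%. The median log2 fold change of the 6 genes was -1.70 in T cells, -2.30 in NK cells and -2.44 in endothelial cells, beside 0.08, 0.12 and 0.01 for all genes, and in the other types it ran from -2.32 in the hepatocyte gate to -0.41 in neutrophils. No pair was called in neutrophils, where edgeR called 0 of 8753 genes, or 0.0% (1460 at an unadjusted p under 0.05, and 221 called by DESeq2).

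In T cells 5 of the 6 genes were called, all lower in HFD, against 6.81% of all T cell genes called lower. Irs2 changed by -2.17 ± 0.24 (SE; edgeR quasi-likelihood test with Benjamini-Hochberg adjustment, adjusted p = 0.00106) on the log2 scale, although its T cell level was below that of free RNA in all 4 libraries. Il12rb2 changed by -1.84 ± 0.20 (SE; adjusted p = 0.001 by edgeR) and Atp8a2 by -1.56 ± 0.20 (SE; adjusted p = 0.00179 by edgeR). Maff changed by -1.20 ± 0.24 (SE; adjusted p = 0.0135 by edgeR). The log2 fold change of Pde4c, -2.74 ± 0.61 (SE; adjusted p = 0.0221 by edgeR), rests on 13 UMIs in each HFD library and on 46 in NCD, of which 91.3% came from 3 cells, and without the 3 top cells of each library it was -0.026 and no longer called. In NK cells Atp8a2, Il12rb2, Maff, Irs2 and Pde4c were called lower, at log2 changes of -4.14 ± 0.36 (SE; adjusted p = 2.08e-07 by edgeR) for Atp8a2, which moved between -3.31 and -5.05 when HFD replicate 1 or 2 was left out, and -2.26 ± 0.18 (SE; adjusted p = 6.06e-08 by edgeR) for Il12rb2. Irs2 in NK cells, at -2.33 ± 0.46 (SE; adjusted p = 0.00183 by edgeR), was no longer called without the 3 top cells, at -1.85 (edgeR adjusted p = 0.0659). For Pde4c in NK cells, where both HFD libraries were at 0, the NCD level was at least 84.2-fold higher than the floor of 3 UMIs over the HFD pair, but the 27 NCD UMIs came from no more than 3 cells and no value is left without them. Beside this, 9.7% of all NK cell genes were called lower.

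Among dendritic cells 3 genes were called lower and Pde4c higher, where 10.5% of all genes were called lower and 8.12% higher. Irs2 fell by a log2 change of 2.68 ± 0.17 (SE; edgeR adjusted p = 0.008), Maff by 1.80 ± 0.15 and Gm26802 by 1.53 ± 0.13. Pde4c rose by 1.00 ± 0.24 (SE; adjusted p = 0.0475 by edgeR), a call that was lost with DESeq2, with DESeq2 size factors and without the 5% of cells with most UMIs. In endothelial cells Pde4c, Gm26802 and Il12rb2 were called, at log2 changes of -4.19 ± 0.30 (SE; adjusted p = 0.00333 by edgeR), -3.41 ± 0.27 (SE; adjusted p = 0.00348 by edgeR) and -2.04 ± 0.40 (SE; adjusted p = 0.0368 by edgeR), against 3.37% of genes called lower. HFD replicate 1 had 109 endothelial cells with 826411 UMIs over all genes, so its values of these 3 genes rest on few UMIs. With HFD replicate 1 or 2 left out, Pde4c moved to -4.36 and -3.55 and Il12rb2 to -1.92 and -2.64. The Il12rb2 call was lost with DESeq2 and without the 5% of cells with most UMIs (adjusted p = 0.137 and 0.0733). Macrophages gave Pde4c, Maff and Gm26802, with -6.55 ± 0.33 (SE; adjusted p = 0.0203 by edgeR), -1.74 ± 0.15 (SE; adjusted p = 0.0245 by edgeR) and -1.44 ± 0.28 (SE; adjusted p = 0.0478 by edgeR), against 4.2%, and all 3 macrophage calls were lost without the 3 top cells of each gene, where the log2 changes were -7.17, -1.87 and -1.54 and the edgeR adjusted p 0.0690, 0.0690 and 0.0850. Pde4c in macrophages moved to -6.29 and -7.53 with HFD replicate 1 or 2 left out. Of the macrophages, the Kupffer gate took 87.5% of the NCD cells, 5.57% and 42.9% of those of the HFD replicates and 52.2% of the JQF cells, so the kinds of macrophage differed with the group.

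B cells gave 1 call, Irs2, where 7.41% of genes were called lower, at a log2 change of -1.92 ± 0.38 (SE; adjusted p = 0.0268 by edgeR), which moved between -1.47 and -2.59 when HFD replicate 1 or 2 was left out and was lost with DESeq2 (adjusted p = 0.171). Monocytes gave Il12rb2 and Atp8a2, against 5.87% of genes called lower, but 92.0% and 100% of their UMIs in NCD came from 3 cells, and neither call held without those cells. In the hepatocyte gate Il12rb2, Atp8a2, Irs2 and Pde4c were called lower and Gm26802 higher, where 14.1% of genes were called lower and 12.8% higher. The NCD value of Gm26802 there, 3.38 CPM, rests on 3 UMIs and was below the 21.8 CPM of free RNA, and the call was lost under 3 alternatives, with an edgeR adjusted p of up to 0.52. Il12rb2 was lost with DESeq2, Irs2 with DESeq2 and without the 5% of cells with most UMIs, and Pde4c with the stricter marker gate and without its 3 top cells, whereas Atp8a2 was not lost. The NCD levels of Il12rb2 and Atp8a2 there, 196 and 190.5 CPM, stood beside T cell markers at 343 CPM, the part of which in the difference was not tested. Of the 28 calls, 14 were not lost under any alternative that gave an adjusted p, and Pde4c in NK cells, which has none without its 3 top cells, is among them.

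**Figure D3:**
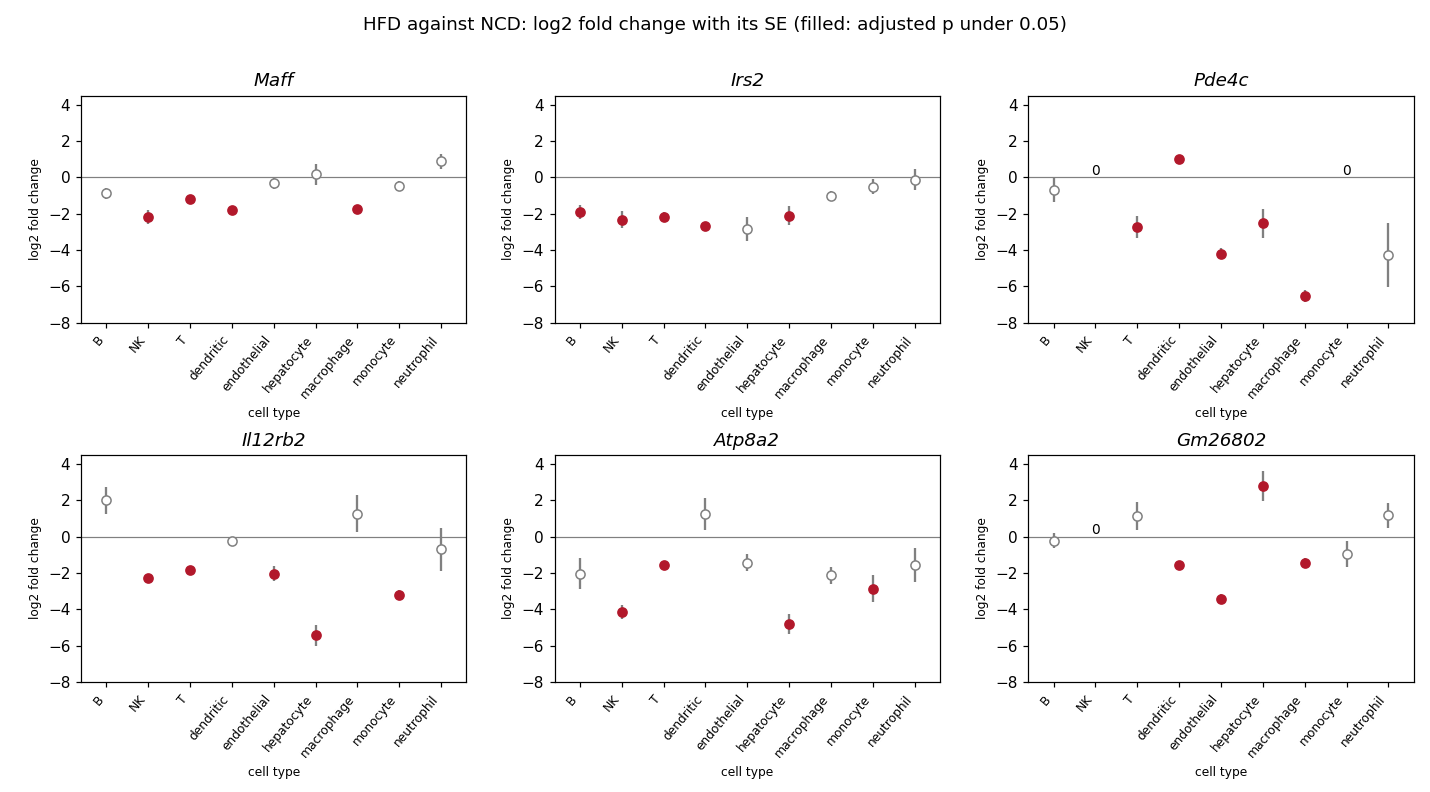
HFD against NCD for the 6 genes in 9 cell types. Points are log2 fold changes from edgeR with their SE as bars, on a linear axis where values below 0 are lower in HFD, filled points have an adjusted p under 0.05, and a 0 marks a pair with no UMI in NCD or in both HFD libraries, where no fold change is drawn. Most filled points lie below the line, and Pde4c in dendritic cells and Gm26802 in hepatocytes are the 2 above it.

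T cells were divided by marker genes into subsets to see which cells carried the 6 genes. Cells with Zbtb16 (PLZF) and without Cd8, a gate that invariant NKT cells meet, were 28.0% of the NCD T cells, 10.95% and 8.72% of those of the HFD replicates and 44.3% of the JQF ones, whereas Cd8+ cells high in checkpoint genes made up 19.2%, 33.4%, 39.5% and 9.99%. Il12rb2 was highest in the first of these gates, at 1322, 396, 449 and 734 CPM. Atp8a2 was too, at 996, 411, 504 and 582 CPM. This gate supplied 65.8%, 29.97%, 29.2% and 59.9% of the T cell UMIs of Il12rb2 and 62.9%, 32.99%, 33.7% and 61.6% of those of Atp8a2, while it held 23.9%, 11.4%, 8.01% and 41.4% of all T cell UMIs. Within the gate JQF was 1.74 times the HFD mean for Il12rb2 and 1.27 times for Atp8a2, less than the 3.71 and 2.98 of all T cells.

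The subset shares thus moved with the group, and the levels also differed within subsets. With T cells of the Zbtb16 gate left out, Il12rb2 stood at 215, 119, 94.9 and 347 CPM and Atp8a2 at 184, 107, 86.5 and 256 CPM. In the Cd8+ checkpoint-high gate Il12rb2 stood at 276, 60.6, 38.5 and 447 CPM and Atp8a2 at 302, 119.5, 49.5 and 484 CPM. JQF was highest and the HFD pair lowest for both genes in that gate. With a stricter subset gate the NCD values there were 96.2 CPM for Il12rb2 and 135 CPM for Atp8a2, the latter beside 108 CPM in HFD replicate 1. In Foxp3+ cells, of which a library had 25 to 61, Il12rb2 was 64.02, 22.3, 30.1 and 163 CPM. The HFD values there rest on 21 UMIs over both libraries. In naive or central memory cells the levels also depended on the gate. As gated, they were less far apart, with Il12rb2 at 202, 196, 182 and 222 CPM and Atp8a2 at 22.8, 29.2, 21.6 and 25.1 CPM, and the Poisson intervals of neighbouring libraries overlapped for both genes when the 4 levels are put in order. The JQF ratio to the HFD mean there was 1.18 for Il12rb2 and 0.987 for Atp8a2. With a stricter subset gate Il12rb2 stood at 87.8, 158, 156 and 199 CPM and Atp8a2 at 8.89, 10.04, 12.8 and 29.9 CPM. JQF was thus highest and NCD lowest for both genes, whereas over all T cells the HFD pair was lowest. Of the 74 UMIs of Atp8a2 in JQF in the stricter naive or central memory gate, 52.7% came from 3 cells.

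Irs2 was highest in type 17 or gamma-delta cells, at 244, 58.5, 49.2 and 125 CPM, and reached 54.3, 14.6, 9.52 and 41.5 CPM in naive or central memory cells. JQF lay above both HFD libraries in 7 of 7 subsets for Il12rb2, Irs2 and Maff, in 6 for Atp8a2, in 5 for Gm26802 and in 3 for Pde4c. These counts are a description, since this contrast chose the genes. Among all genes tested in T cells as a whole the share was 25.3%, and no share was computed per subset. For Maff the naive gate stood at 82.3, 24.7, 37.7 and 63.8 CPM and the Zbtb16 gate at 79.4, 43.9, 34.9 and 72.3 CPM. Gm26802 was highest in type 17 or gamma-delta cells, at 39.9, 96.7, 18.9 and 114 CPM. NCD had 16 cells in this gate, so its values of Irs2 and Gm26802 there rest on few cells. Pde4c was scarce in the T cell subsets, and its highest value, 20.4 CPM in cycling NCD cells, rests on 30 UMIs.

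**Figure D4:**
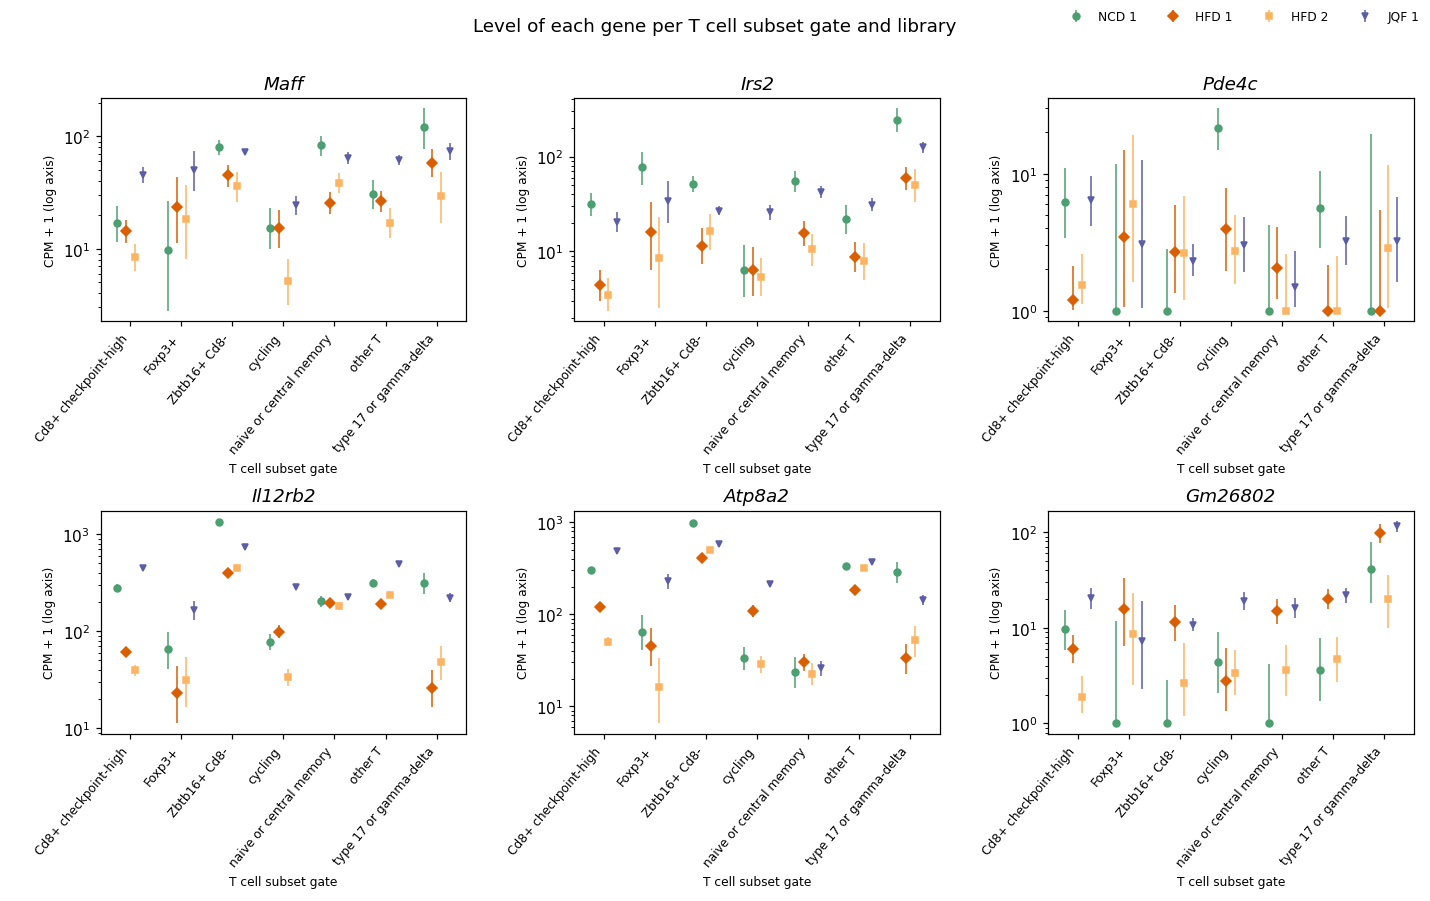
Level of the 6 genes in 7 T cell subset gates. The vertical log axis gives CPM plus 1, points are single libraries coloured as in the plot of cell types, and bars are exact Poisson 95% intervals. Il12rb2 and Atp8a2 are highest in the Zbtb16+ Cd8- gate and JQF lies above both HFD libraries in 7 of 7 gates for Il12rb2, Irs2 and Maff and in 3 for Pde4c. The genes were chosen by this contrast, and 25.3% of all genes tested in T cells as a whole had JQF above both.

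Dendritic cells and macrophages were divided in the same way. Gm26802 was highest in dendritic cells with Xcr1 or Clec9a, the markers of cross-presenting dendritic cells, at 163, 53.98, 61.9 and 194 CPM. It was lower in Cd209a cells, at 55.4, 39.8, 23.7 and 95.3 CPM, and in Ccr7+ Fscn1+ cells, at 4.23, 17.7, 2.88 and 42.5 CPM. In Ccr7+ Fscn1+ cells NCD had 1 UMI in 8 cells, and HFD replicate 2 had 6 UMIs, 83.3% of them from 3 cells. Of the 39 NCD UMIs in Cd209a cells, 66.7% came from 3 cells. Irs2 was higher in Cd209a cells in NCD, HFD replicate 1 and JQF but not in HFD replicate 2, with 214, 34.4, 22.9 and 100.2 CPM in Cd209a cells and 75.9, 13.6, 23.6 and 44.3 CPM in Xcr1 or Clec9a cells. The shares of these gates were alike in the HFD and JQF libraries, with Xcr1 or Clec9a cells at 55.5%, 53.5% and 54.9% of dendritic cells. In Kupffer-gated macrophages Gm26802 stood at 95.1, 24.95, 36.7 and 119 CPM, Irs2 at 86.1, 29.9, 25.3 and 115 CPM and Pde4c at 100.4, 2.495, 0.498 and 20.4 CPM, so within this gate too both HFD libraries were below NCD and JQF. HFD replicate 1 had 33 cells in this gate, with 10 UMIs of Gm26802, all from 3 cells, and 12 of Irs2, 83.3% of them from 3 cells. The HFD values of Pde4c rest on 1 and 6 UMIs, and 70.7% of the JQF UMIs came from 3 cells. In the lipid-associated gate, which held 1 cell in NCD, Maff was 23.3 and 26.8 CPM in HFD and 87.03 CPM in JQF.

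In droplet data free RNA gives UMIs to cells that do not express a gene. Free RNA was read from barcodes that were not called as cells and held at most 100 UMIs. Il12rb2 stood there at 63.7, 25.3, 15.4 and 122 CPM and Atp8a2 at 42.9, 22.7, 12.7 and 99.6 CPM, highest in JQF. Over the 54 pairs, the level in cells was above that of free RNA of the same library in 27 in NCD, in 18 and 20 in HFD and in 29 in JQF. For Il12rb2 and Atp8a2 in JQF only NK and T cells were above it. The higher JQF levels of these genes in the other 7 types, Il12rb2 from 15.1 to 46.7 CPM, were below it. This does not decide whether those cells express the genes, since only part of the UMIs of a cell come from free RNA. Hepatocyte markers summed to 10045 CPM in the free RNA of JQF. Outside the hepatocyte gate they ran from 177 CPM (B cells) to 586 CPM (macrophages) in JQF. In those 7 types all 7 T cell markers were detected in JQF and 6 or 7 of them were above both HFD libraries, and their sum ranged from 74.5 to 136 CPM in JQF and from 16.1 to 60.5 CPM in HFD. The NK cell gate held T cell markers at 897, 820, 832 and 789 CPM. The part of T cell RNA in the levels of these types and of NK cells was not tested. In dendritic cells the marker sum was 12.7, 38.8, 18.5 and 126 CPM. In JQF the Il12rb2 level of these 7 types came to 13.4% (B cells) to 39.1% (hepatocyte gate) of the T cell marker sum, against 12.8% in T cells and 11.5% in free RNA, and the Atp8a2 level to 7.16% (B cells) to 26.9% (endothelial cells), against 9.86% and 9.38%. In NCD the Il12rb2 level ran from 9.38% (B cells) to 135% (monocytes) of that sum, with dendritic cells at 125%. It ran from 0% (hepatocyte gate) to 35.1% (dendritic cells) in HFD replicate 1. In replicate 2 it ran from 2.78% (neutrophils) to 83.1% (dendritic cells). T cells of NCD and HFD replicates 1 and 2 stood at 14.1%, 3.47% and 2.70%, and free RNA at 14.5%, 2.51% and 2.33%. Gm26802 was above free RNA in JQF in 8 of 9 types, Pde4c in 7, Irs2 in 6 and Maff in 4, where free RNA held 21.8, 9.09, 10.4 and 20.6 CPM of Gm26802, 32.9, 3.83, 4.09 and 4.12 CPM of Pde4c, 42.6, 24.1, 19.8 and 39.6 CPM of Irs2 and 32.8, 41.4, 32.5 and 70.1 CPM of Maff. Maff in T cells of JQF, at 59.9 CPM, was below the 70.1 CPM of free RNA, and Irs2 in T cells was below it in all 4 libraries. Of the 26 HFD against NCD calls in the lower direction, the NCD level was above the free RNA of NCD in 21, and the other 5 were Irs2 and Pde4c in T cells, Il12rb2 in endothelial cells, Pde4c in the hepatocyte gate and Atp8a2 in monocytes.

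**Figure D5:**
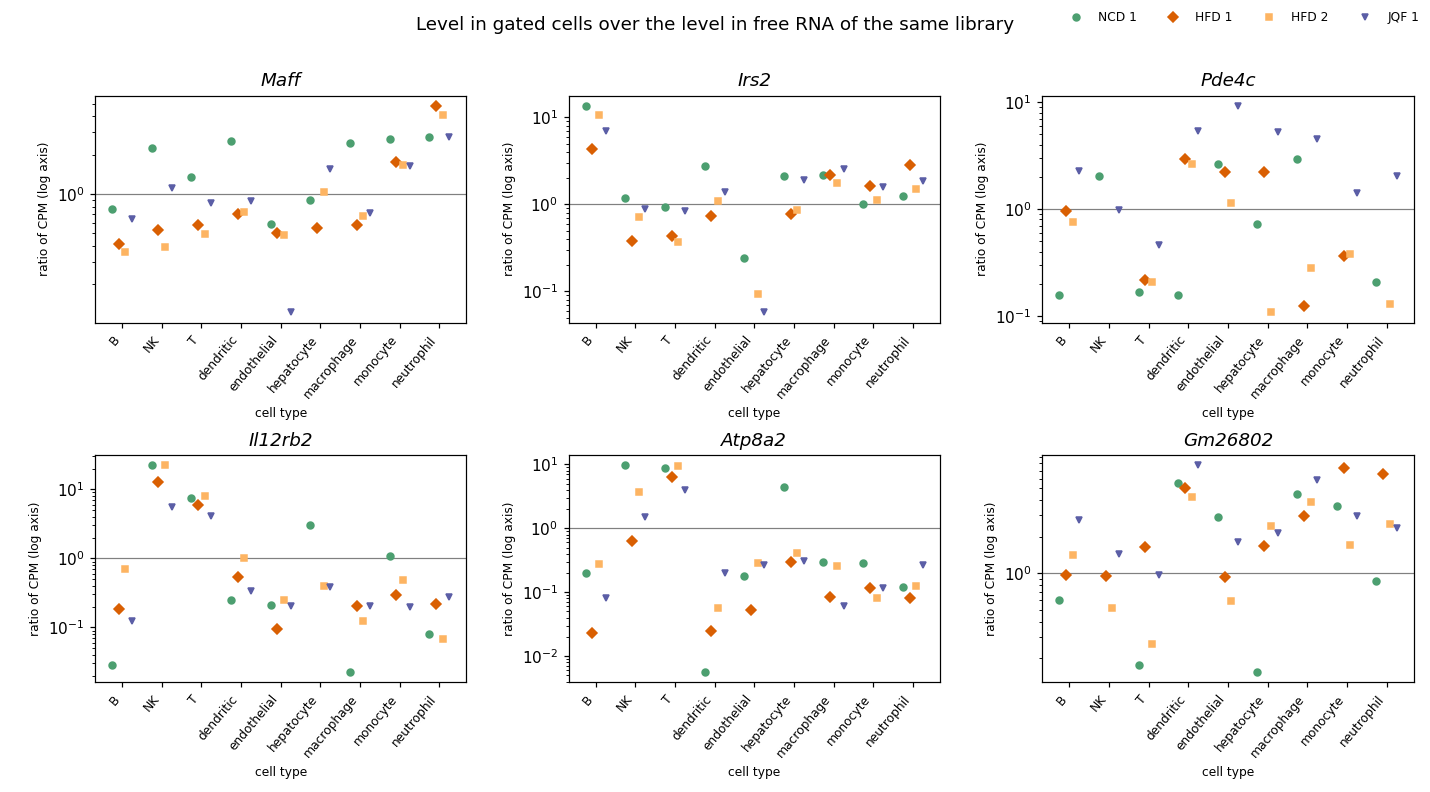
Level in gated cells relative to free RNA. The vertical log axis gives the CPM of a gene in a cell type over its CPM in free RNA of the same library, points are libraries coloured as in the plot of cell types, the line marks a ratio of 1, and pairs with no UMI are not drawn. For Il12rb2 and Atp8a2 only NK and T cells lie above the line in JQF, whereas Gm26802 lies above it in 8 of 9 types.

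Genes of cell stress and tissue dissociation were read beside the 6 genes. Of 17 such genes, 6 in neutrophils to 17 in the hepatocyte gate were higher in JQF than in both HFD libraries. There were 7 in endothelial cells, 12 in T cells, 14 in dendritic cells and 15 in NK cells. The share over all gene tests was 33.3%, but it differed by type. It was 40.1% in neutrophils, 58.3% in the hepatocyte gate and 35.1% in endothelial cells. In T cells, dendritic cells and NK cells it was 25.3%, 28.9% and 26.5%. The summed level of the 17 genes in T cells was 14567, 12082, 10772 and 17303 CPM. In NK cells it was 19995, 7111, 7773 and 14885 CPM and in endothelial cells 9882, 3882, 4476 and 4345 CPM. In endothelial cells the JQF sum thus lay between those of the HFD replicates. Over the 9 types, 19 of 153 tests of these genes were called higher in JQF than in HFD, where 1.02% of all gene tests were called, 0.73% higher and 0.294% lower, 13 of the 19 in NK cells and 5 in T cells, where 3.43% and 0.621% of all genes were called higher, while 0 to 17 genes in all were called higher in each other type but the hepatocyte gate. None was called lower by edgeR, with 7 lower at an unadjusted p under 0.05 and 2 called lower by DESeq2. Junb stood at 3234, 581, 763 and 1841 CPM in NK cells, where the log2 change from HFD to JQF was 1.58 ± 0.19 (SE; adjusted p = 4.85e-05 by edgeR). Atf3, at 375, 131, 81.5 and 341 CPM in NK cells, changed by 1.76 ± 0.22 (SE; adjusted p = 6.72e-05 by edgeR). Against NCD, 46 of the 153 tests were lower in HFD and 1 higher, with Hspa1a and Dnajb1 called in 6 types each, beside 6.94% lower and 5.34% higher of all gene tests. How much of the differences of the 6 genes goes with this list was not tested.

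The pathways around the genes were followed in lists without the genes themselves, which were drawn up with earlier results of these data known. Of the cyclic AMP list, 21 genes of phosphodiesterases and of the response to cyclic AMP, 69 of 178 tests were lower in HFD than in NCD and 8 higher, and the median of the type medians was -0.79. Counts of this and the next lists are to be read beside the shares of all gene tests. These were 6.94% lower and 5.34% higher for HFD against NCD, and 0.73% higher and 0.294% lower for JQF against HFD. The latter differed by type, with 3.43% higher and 0.651% lower in NK cells and 3.13% and 1.79% in the hepatocyte gate. Nr4a3, an orphan nuclear receptor induced by cyclic AMP and by antigen receptor signals, was lower in 8 types, in T cells at 1646, 201, 157 and 590.0 CPM, where the log2 change was -3.24 ± 0.23 (SE; adjusted p = 1.67e-04 by edgeR). Crem was lower in 6 types, in dendritic cells at 238, 23.7, 28.2 and 38.4 CPM, and so were Pde3b and Pde4b. For JQF against HFD, 11 of the 178 tests were higher and 1 lower, and 7 of the 11 were in NK cells and 3 in T cells. Nr4a3 rose there by 2.44 ± 0.21 (SE; adjusted p = 3.06e-06 by edgeR) and in T cells by 1.83 ± 0.23, while Nr4a1 and Rgs2 rose in both types and Nr4a2 in NK cells.

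In the list of the IL-12 and IL-18 receptor pathway, 21 of 117 tests were lower and 10 higher in HFD than in NCD. Stat4, the factor below the receptor, was lower in 6 types, in T cells at 1705, 553, 602 and 712 CPM with -1.59 ± 0.23 (SE; adjusted p = 0.00389 by edgeR), and Tyk2, the kinase bound to its other chain, was higher in 4, in T cells at 19.1, 55.2, 49.7 and 34.2 CPM with 1.43 ± 0.21 (SE; adjusted p = 0.00421 by edgeR). Tbx21 and Jak2 were lower in 4 types each. For JQF against HFD, 7 tests were higher and 1 lower, 4 of the 7 in the hepatocyte gate. Ifng, the cytokine that the receptor induces, was called higher in 4 types, among them NK cells at 741, 204, 284 and 504 CPM with 1.18 ± 0.20 (SE; adjusted p = 0.00152 by edgeR), whereas in T cells edgeR called 0 of the 15 genes tested (5 at an unadjusted p under 0.05, and 1 called by DESeq2) and Stat4 stood at 553, 602 and 712 CPM in HFD and JQF. The other 3 types with an Ifng call were dendritic cells, monocytes and the hepatocyte gate, where T cell markers were also higher in JQF.

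Of the insulin and IRS signalling genes, 33 of 141 tests were lower in HFD than in NCD and 5 higher. Foxo1, a forkhead factor that insulin signals restrain, was lower in 6 types, with 353, 171, 155 and 151 CPM and -1.15 ± 0.19 (SE; adjusted p = 0.00614 by edgeR) in T cells, and Foxo3 was lower in 5, and Socs1 and Socs3 in 4 each. For JQF against HFD 5 tests were higher and 2 lower, with Igf1r lower in NK cells and higher in the hepatocyte gate and Socs3 higher in both. Of the small Maf, CNC and NRF2 target genes, 22 of 129 tests were lower and 8 higher in HFD than in NCD, with Txnrd1 lower in 5 types, Bach1 in 4 and Slc7a11 higher in 2 and lower in 1, and 4 were higher and 1 lower in JQF than in HFD. The lower gene was Srxn1, and Slc7a11 was higher in 2 types. Osgin1 in NK cells, at 89.5, 6.04, 7.17 and 64.6 CPM, changed by 3.43 ± 0.33 (SE; adjusted p = 4.53e-06 by edgeR) and Nfe2l2, which encodes NRF2, by 1.13 ± 0.19. Of the P4 ATPase flippases, 16 of 100 tests were lower and 2 higher in HFD than in NCD, with Atp8b4 lower in 2 types and higher in 2 and Atp11b, Atp8a1 and Atp9b lower in 3 types each, and edgeR called 0 of 100 between JQF and HFD, with 7 at an unadjusted p under 0.05 and 0 called by DESeq2. Of the glucocorticoid response genes, 16 of 85 tests were higher in HFD and 11 lower, with Ddit4 higher in 8 types, Fkbp5 in 5, Zbtb16, which also defines the T cell gate above, higher in 3 and lower in 3, and Il1r2 lower in 3. Per1 and Dusp1 of this list also stand in the cyclic AMP list and the stress list, and 5 were higher and 1 lower in JQF than in HFD.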

How the data were processed

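Single-cell RNA sequencing libraries (10x Genomics 3′ v3.1) from perfused mouse livers were analysed from the UMI counts per gene and cell that the authors deposited, 1 filtered and 1 unfiltered matrix per library. The submitters' processing notes name Cell Ranger 6.0.1, Seurat 4.0.3 and mm10, whereas headers of the filtered matrices give Cell Ranger 7.0.0 and those of the unfiltered ones version 4, and whether intron reads were counted is not given in the sources used here. If they were, long genes such as Atp8a2 would gain most. Groups were taken from the sample titles. The members and gene lists were chosen with earlier results of these data known.

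Cells were kept if they had 500 genes or more and no more than 20% of UMIs from mitochondrial genes. A cell was placed in the type whose 4 highest markers gave the highest mean scaled level (at least 0.3, at least 0.1 above the next type, at least 3 markers detected), and 4.37% to 6.01% of cells lay near that margin. No doublet caller was run, and leaving out the 5% of cells with most UMIs was an alternative. Subsets were gated on marker UMIs. UMIs were summed per library and type and tested with edgeR 4.0.16 (TMM, filterByExpr, quasi-likelihood, group term, 4 libraries) with Benjamini-Hochberg adjustment over all genes of a type at 0.05, in R 4.3.3. All p-values rest on the spread of the HFD pair (1 residual degree of freedom) and on the spread that edgeR borrows across genes (3.80 to 16.9 prior degrees of freedom, and an infinite number in the hepatocyte gate, where every gene took the trend), and NCD and JQF are assumed to vary alike. The study's methods count the HFD pair as separate liver samples and the labels name no animals, so part of the spread may be technical. DESeq2 1.42.0 was an alternative. Intervals are exact Poisson for CPM and Clopper-Pearson for shares, at 95%, and cover counting error only, and an absent gene was limited by 3 counts. Detection was also given as the expected share after thinning to 2000 UMIs, with shallower cells left out, and free RNA was read from uncalled barcodes with at most 100 UMIs. Python 3.11.15 with numpy 2.4.6, pandas 2.3.3, scipy 1.17.1 and matplotlib 3.10.9 was used.

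Named genes were the members, up to 4 called genes per list and comparison by the number of types called and then by fold change, the 3 genes with the highest Pearson r with each member among genes with a mean of at least 5 CPM, and the immediate neighbours. Of the genes most like Maff and Atp8a2, some are not reported here. The alternatives were library totals, DESeq2 size factors, no gene filter, stricter cell and marker gates, thinning, stricter subset gates, equal weights for T cell subsets and leaving out each HFD library, the 5% deepest cells or the 3 top cells of a gene. TMM-scaled CPM and T cells without the Zbtb16 gate were added after seeing the data, as were counts without the hepatocyte gate.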

Additional observations from a re-analysis of the deposited data

Results flagged for a closer look

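Maff in endothelial cells was noted because JQF stood below both HFD libraries there, with a ratio of 0.472 to the HFD mean, while it stood above both in 7 of the other 8 types. HFD replicate 1 had 17 UMIs in this type, and the level was below the free RNA in all 4 libraries (8.53 against 70.1 CPM in JQF). The difference between types was not tested.

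Pde4c changed in opposite directions between types when HFD was compared with NCD. The log2 fold change was 1.00 in dendritic cells against -2.74 in T cells, -4.19 in endothelial cells, -2.52 in the hepatocyte gate and -6.55 in macrophages. In NK cells the fitted value was -9.75, which depends on the prior count because both HFD libraries were at 0. Gm26802 went up in the hepatocyte gate (2.79) and down in dendritic cells (-1.53), endothelial cells (-3.41) and macrophages (-1.44). The NCD value in the hepatocyte gate rests on 3 UMIs and was below free RNA (3.38 against 21.8 CPM), and that call was lost under 3 alternatives and the macrophage call under 2. For Pde4c in dendritic cells the NCD level of 5.15 CPM was below the 32.9 CPM of free RNA, and the call was lost under 3. The T cell value was -0.026 without the 3 top cells, and the calls in T cells and the hepatocyte gate were lost under 2 alternatives each and that in macrophages under 1. None of these differences between types was tested.

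The free RNA of JQF, which lies outside the cells compared, held more of 3 genes than the free RNA of NCD and HFD. Maff stood at 70.1 CPM in JQF, beside 32.8, 41.4, 32.5 and 70.1 CPM in the order of the libraries, Il12rb2 at 122 CPM and Atp8a2 at 99.6 CPM. The summed T cell markers in free RNA were 440.2, 1008, 664 and 1061 CPM.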

How the results depend on the processing

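The 28 HFD against NCD calls became 30 with library totals, 28 with DESeq2 size factors, 36 without a gene filter, 29 with stricter cell filters, 25 with the stricter marker gate, 25 without the 5% deepest cells, 19 without the 3 top cells of each gene and 16 with DESeq2, which gave no adjusted p for 6 of the 28. All 16 DESeq2 calls and 18 of the 19 were among the 28. The cause was not tested. For 8 of the 28, leaving out 1 HFD library moved the fold change by over 1.5 times. Without HFD replicate 1 and without replicate 2 in turn, the log2 changes were -1.47 and -2.59 for Irs2 in B cells, -3.31 and -5.05 for Atp8a2 in NK cells, -1.92 and -2.64 for Il12rb2 and -4.36 and -3.55 for Pde4c in endothelial cells, -4.72 and -10.58 for Il12rb2, where HFD replicate 1 was at 0 so that the latter depends on the prior count, and -5.26 and -1.34 for Pde4c in the hepatocyte gate, -6.29 and -7.53 for Pde4c in macrophages and -3.57 and -2.28 for Atp8a2 in monocytes. With genes in more than 1 list counted once, the 55 calls in 885 list tests of JQF against HFD became 85 with library totals and 152 in 965 tests without a filter. The count of 50 pairs with JQF above both HFD libraries ran from 49 to 53, and from 50 to 53 without 1 HFD library. Of 52 pairs with a higher share of cells, 51 remained higher after thinning, and 28 when the JQF level also had to exceed free RNA. With library totals the median log2 fold change of all genes moved from 0.12 to 0.29 in NK cells (HFD against NCD) and from 0.06 to 0.47 in the hepatocyte gate (JQF against HFD).

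Signs turned for these HFD against NCD values. Maff in the hepatocyte gate became -0.036 with library totals, -0.45 with stricter cell filters, -0.47 without the 5% deepest cells and -0.55 without the 3 top cells. Irs2 in neutrophils became 0.0018 without a filter. Without the 3 top cells Pde4c in B cells became 0.050, Il12rb2 in dendritic cells 0.0077 and in neutrophils 3.03, and Atp8a2 became 6.89 in macrophages, 4.88 in monocytes (called before) and 0 in neutrophils. Atp8a2 in macrophages was 2.72 without the 5% deepest cells. No paired analysis was possible because the mice were divided between the groups and the labels name no pairs. Single NCD and JQF libraries, 37 NK cells and 48 monocytes in NCD and few UMIs for Pde4c limit what can be read.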

Other observations

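Types with under 30 cells in some library entered no test. Plasmacytoid dendritic cells (22 to 194 cells) held Irs2 at 227, 17.6, 22.8 and 149.6 CPM and Il12rb2 at 59.02, 38.7, 42.2 and 82.7 CPM, in the order NCD, HFD replicates 1 and 2 and JQF. The Il12rb2 values of NCD and JQF lay below free RNA. Stellate cells, which store vitamin A and form matrix, held Pde4c at 242, 0, 0 and 12.7 CPM, where 3 of 27 NCD cells gave 80.5% of the UMIs and HFD replicate 1 had 2 cells.

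A gate of epithelial markers was led by Tff1, Gkn2 and Gkn1, which are known from gastric epithelium, and so was given no cell type name. Maff stood at 297, 124, 50.3 and 97.3 CPM there and Gm26802 at 248, 147, 33.4 and 38.6 CPM, with HFD replicates apart and JQF between them for both genes.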
